A study of Mus musculus with 12 samples.

Results

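Fos, Fosb, Fosl2, Jun, Junb, Jund, Atf3, Maff, Egr1 and Bhlhe40 are genes for AP-1 proteins and other immediate early transcription factors, and their RNA was measured in mouse neutrophils from bone marrow (BM) and from the inflamed peritoneum (PT). They were taken from the deposited expression table by gene symbol, which gave 10 of the 28987 genes listed. All 10 had at least 1 TPM (a transcript level corrected for gene length and scaled to a fixed total in each library) in at least 3 of the 12 libraries, and so all 10 were among the 13456 genes tested.

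The 12 libraries fell into 4 groups of 3: BM WT (libraries 4, 5 and 6), PT WT (10, 11 and 12), BM Bcl2 (1, 2 and 3) and PT Bcl2 (7, 8 and 9). All came from mice of the FVB strain that had received 2 mL of thioglycollate, a sterile irritant that draws neutrophils into the peritoneum, so BM is marrow of injected mice and no group was uninjected. WT mice were wild-type, and MRP8-Bcl2 mice carried human Bcl-2, a protein that protects cells from apoptosis, under the human MRP8 regulatory regions, which direct expression to myeloid cells. The labels give collection 6 h after injection and name macrophages as the source, while the series design and the study's methods name sorted neutrophils and the methods name an earlier and a later time. The age of the mice was not given. The methods describe both tissues as taken from the same animals, but nothing tied a library to a mouse, so BM and PT libraries that may share a mouse were tested as independent. The tests measure the spread between these libraries, which may be partly technical.

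AP-1 is a dimer of basic leucine zipper proteins, in which a Jun protein pairs with another Jun, with a Fos protein or with a member of the ATF family, and binds short DNA elements in promoters and enhancers. Immediate early genes are switched on within minutes of a signal without new protein synthesis, through factors already present in the cell, and their RNA is mostly short-lived. In neutrophils and other myeloid cells such genes respond to adhesion, cytokines and microbial products.

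Some properties of the libraries touch every result. The value of 1 read, estimated from the steps between low values, was 0.340 to 1.60 TPM on a transcript of 1000 nt, so the libraries were shallow. Transcripts of 108 genes hold at least 31 consecutive A or T bases, and these genes took 8.9 to 24.1% of all TPM in BM and 15.5 to 65.6% in PT, which lowers every other gene's TPM in the libraries where they were high. The mouse Bcl2 gene stood at 0.219 to 2.37 TPM in the 6 WT libraries and at 58.6 to 333 TPM in 5 of the 6 MRP8-Bcl2 libraries, but at 0.695 TPM in library 9, the library labelled PT Bcl2 that lay at the WT level. The transgene is human, and whether reads counted for mouse Bcl2 came from it was not tested. Library 12 (PT WT) also stood apart, with 678 TPM over the 5 mast cell markers against 4.91 to 78.0 TPM in the other 11. Values that changed direction or moved by more than 1.5-fold without library 9, library 12 or both are given with and without them. Calls lost without them are stated. In bulk RNA, fewer cells of a type and less RNA per cell cannot be told apart.

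Sequence upstream of the start site was available from RefSeq (GRCm38.p6) for 8 of the 10 genes in 10 windows, each of 250 bases before to 50 bases after a start. Egr1 and Bhlhe40 had no entry. The 120 bases before the start are shown for Fos, which was called in no comparison, and for Jun, Junb, Atf3 and Maff, which were called higher in PT below. Capitals mark matches, on either strand, to TGANTCA (the AP-1 element), TGACGTCA (the full CRE), TGACATCA (the element known from the Jun promoter), TGACGT (part of a CRE), TGACGC (a near match to that part), CACGTG (an E-box), GCGTGGGCG and GCGGGGGCG (EGR elements), TATAAA or the CArG box. TGACGT and TGACGC were added after the windows had been read, and TGACGT lies inside TGACGTCA.
Fos: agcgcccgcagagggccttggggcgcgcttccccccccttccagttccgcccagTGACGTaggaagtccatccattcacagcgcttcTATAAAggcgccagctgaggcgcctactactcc
Jun: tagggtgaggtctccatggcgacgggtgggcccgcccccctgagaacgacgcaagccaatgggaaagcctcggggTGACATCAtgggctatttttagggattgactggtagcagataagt
Junb: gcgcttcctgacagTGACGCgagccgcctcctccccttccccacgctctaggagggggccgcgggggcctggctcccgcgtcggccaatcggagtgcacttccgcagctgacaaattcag
Atf3: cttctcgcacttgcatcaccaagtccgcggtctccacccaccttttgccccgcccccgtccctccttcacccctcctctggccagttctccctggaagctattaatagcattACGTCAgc
Maff: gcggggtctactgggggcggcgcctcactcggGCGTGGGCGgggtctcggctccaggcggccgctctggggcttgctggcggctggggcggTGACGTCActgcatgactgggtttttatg

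These stretches are chr12:85473770-85473889 (plus strand), chr4:95052223-95052342 (minus), chr8:84978749-84978868 (minus), chr1:191183334-191183453 (minus, with 7 bases in an annotated exon of Atf3) and chr15:79347400-79347519 (plus, the second of 3 Maff starts). Fos held TGACGT at -66 and TATAAA at -33 from the start, and Jun held TGACATCA at -45. In Junb, TGACGC lay at -106 and, outside the stretch shown, TATAAA at +1, and in Atf3 the reverse complement of TGACGT lay at -8. The annotated Junb gene start, at 84978718, lies downstream of the RefSeq start used here. Measured from that annotated start, both Junb motifs lie further upstream. The Maff window held TGACGTCA at -29, GCGTGGGCG at -88 and, outside the stretch shown, CACGTG at -191, while the third Maff window held TGACATCA at -45. Among the windows not shown, Fosb held TGACGC at -60 and GCGGGGGCG at -50, Fosl2 held GCGGGGGCG at -79, and Jund held none of the motifs. The 120 bases before this Fosl2 start lay wholly within annotated exons. The Jund window, chr8:70697489-70697788, ended before the annotated gene start at 70698949, so sequence next to that start was not searched. The annotated Atf3 gene start, at 191218039, lies far upstream of the Atf3 window, and sequence next to it was not searched either. TGANTCA and the CArG box were in none of the 10 windows. Sequence more than 250 bases before a start was not searched, nor was any of Egr1 or Bhlhe40, so elements there would be missed. Of 32851 mouse promoter windows of the same length, 1.79% held TGACGTCA, 3.62% TGACATCA, 7.51% TGACGT, 7.40% TGACGC, 7.15% CACGTG, 0.612% GCGTGGGCG, 2.91% GCGGGGGCG, 13.6% TATAAA, 7.81% TGANTCA and 1.63% the CArG box. A match describes letters in a window and not a bound site.

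Over both genotypes, 7 of the 10 genes were called higher in PT than in BM and none was called lower. They were Jun, Junb, Jund, Atf3, Egr1, Maff and Bhlhe40. A call here is a Benjamini-Hochberg adjusted p under 0.05 over all genes tested, with at least a 2-fold change on the log2(TPM + 1) scale, and by that rule 5.13% of the genes tested were higher and 14.1% were lower. In WT 5 genes were called higher (Fosb, Jun, Jund, Atf3 and Bhlhe40) and none lower, against 1.59% and 1.22% of all genes. In MRP8-Bcl2 4 genes were called higher (Junb, Atf3, Maff and Bhlhe40) and none lower, against 2.31% and 19.1% of all genes. The median log2 change of the 10 genes was 2.78 in WT, 1.60 in MRP8-Bcl2 and 2.40 over both, beside medians of 0.22, -1.02 and -0.40 over all genes tested. Atf3 and Bhlhe40 were the genes called in all 3 comparisons. Fos and Fosl2 were called in none of them. Without libraries 9 and 12 the counts were 2 in WT (Atf3 and Bhlhe40), 4 in MRP8-Bcl2 and 7 over both.

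**Figure D1:**
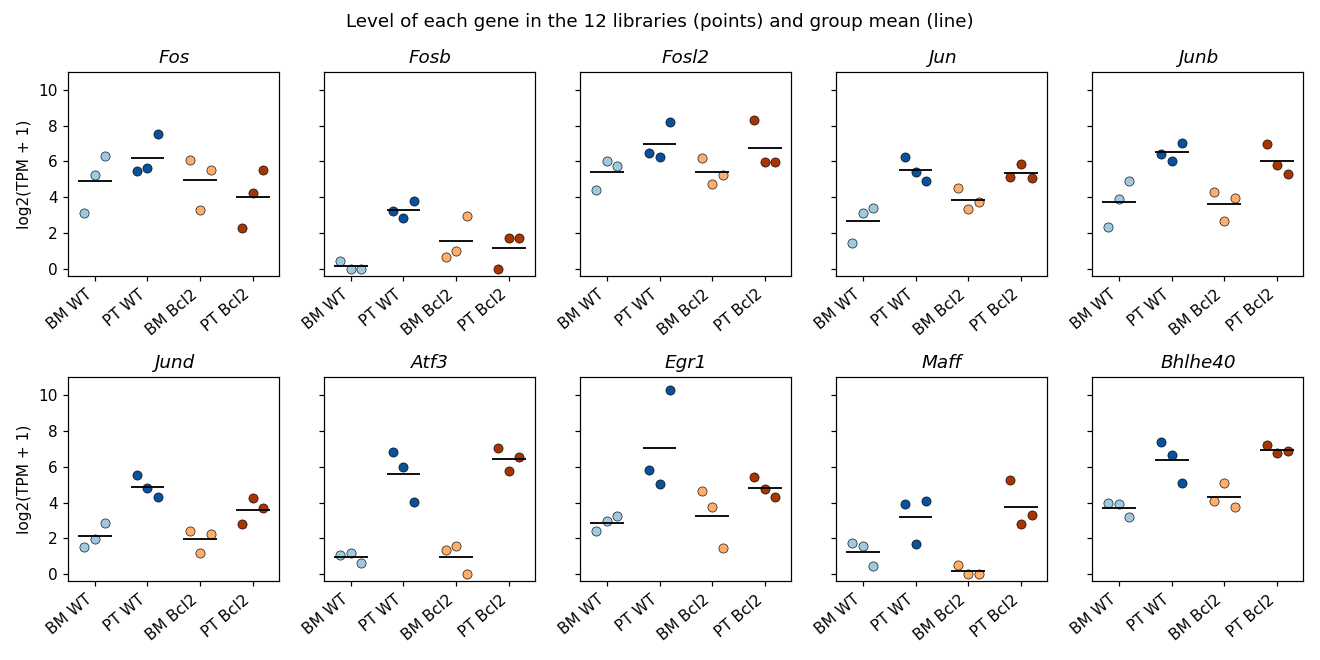
Each panel shows 1 gene, with log2(TPM + 1) on the vertical axis, 1 point for each library in the 4 groups and a line at the group mean. Jun, Junb, Atf3 and Bhlhe40 had every PT point above every BM point, while the Fos points of PT and BM overlapped in both genotypes. The share of all genes tested with such a separation was not counted, here or for the separations given below.

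The Fos family supplies the AP-1 partners that cannot pair with themselves. Fos (ENSMUSG00000021250, chr12:85473890-85477273, plus strand, GRCm38) encodes its founding member. In BM it stood at 7.80, 36.9 and 79.3 TPM in WT and at 66.0, 8.77 and 44.5 TPM in MRP8-Bcl2, each in library order. In PT it stood at 43.1, 48.0 and 184 TPM in WT and at 3.86, 17.6 and 44.3 TPM in MRP8-Bcl2. The groups overlapped in both genotypes, the highest value was in library 12 and the lowest in library 7. The log2 change in PT was 1.30 (SE 1.01, adjusted p = 0.564) in WT, -0.95 (SE 1.01, adjusted p = 0.515) in MRP8-Bcl2 and 0.17 (SE 0.71, adjusted p = 0.888) over both. The 95% interval over both, -1.34 to 1.69, allows a change of more than 2-fold either way. Without libraries 9 and 12 the values were 0.64, -1.71 and -0.53, so the direction over both genotypes turned.

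Fosb (ENSMUSG00000003545, chr7:19302696-19310051, minus strand), a close relative best known from neurons, was the lowest of the 3. Its BM level was 0.360, 0 and 0 TPM in WT, which is 2.0 estimated reads in all, and 0.570, 0.972 and 6.87 TPM in MRP8-Bcl2. In PT it reached 8.47, 6.30 and 13.0 TPM in WT, or 66.2 to 142 reads per library, but 0, 2.33 and 2.35 TPM in MRP8-Bcl2. All PT WT libraries were above all BM WT libraries, whereas in MRP8-Bcl2 the groups overlapped and the highest value was in BM. The log2 change was 3.16 (SE 0.76, adjusted p = 0.0382) in WT, a call that was lost on leaving out any of libraries 2, 4, 5, 6, 10, 11 and 12 (2.91 to 3.38 over the 12 such fits, adjusted p up to 0.112). It was -0.38 (SE 0.76, adjusted p = 0.746) in MRP8-Bcl2 and 1.39 (SE 0.54, adjusted p = 0.0827) over both.

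Fosl2 (ENSMUSG00000029135, chr5:32135801-32157842, plus strand), which encodes Fra-2, was the most abundant gene of the family per unit of length in 10 of the 12 libraries. BM held 20.3, 64.3 and 52.0 TPM in WT and 71.3, 25.3 and 37.6 TPM in MRP8-Bcl2, and PT held 86.3, 76.2 and 292 TPM in WT and 314, 62.1 and 62.9 TPM in MRP8-Bcl2. Each PT group had 1 library far above the other 2, library 12 in WT and library 7 in MRP8-Bcl2. The WT groups did not overlap, and in MRP8-Bcl2 library 1 of BM lay above libraries 8 and 9 of PT. The change was 1.58 (SE 0.75, adjusted p = 0.310) in WT, 1.37 (SE 0.75, adjusted p = 0.197) in MRP8-Bcl2 and 1.48 (SE 0.53, adjusted p = 0.0645) over both, so it passed the test in none. Without libraries 9 and 12 these values were 0.97, 1.75 and 1.36 (adjusted p = 0.644, 0.128 and 0.105), and without library 7 the value in MRP8-Bcl2 was 0.60.

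The Jun family is the other side of the dimer, and each of its members can also pair with itself. Jun (ENSMUSG00000052684, chr4:95049034-95052222, minus strand) stood at 1.72, 7.86 and 9.41 TPM in BM WT and at 21.5, 9.28 and 12.3 TPM in BM Bcl2. It stood at 76.1, 41.0 and 28.8 TPM in PT WT and at 34.1, 56.6 and 32.9 TPM in PT Bcl2. All 6 PT libraries were above all 6 BM libraries, with the smallest gap between library 1 of BM Bcl2 and library 12 of PT WT. The log2 change was 2.86 (SE 0.67, adjusted p = 0.0349) in WT, 1.49 (SE 0.67, adjusted p = 0.120) in MRP8-Bcl2 and 2.18 (SE 0.48, adjusted p = 0.00606) over both. The WT call was lost without any of libraries 4, 5, 10 and 11, at adjusted p up to 0.152. It was also lost without libraries 9 and 12 together. Junos is annotated on the opposite strand of this locus, and whether the libraries kept strand was not stated, so reads of the pair cannot be told apart.

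Junb (ENSMUSG00000052837, chr8:84974484-84978718, minus strand), a Jun protein prominent in myeloid cells, had every PT library above every BM library as well. BM WT held 3.99, 13.9 and 29.4 TPM and BM Bcl2 18.9, 5.41 and 14.3 TPM. PT WT held 84.5, 64.2 and 132 TPM and PT Bcl2 126, 54.7 and 38.6 TPM. The change was 2.79 (SE 0.74, adjusted p = 0.0572) in WT, just short of the threshold, 2.39 (SE 0.74, adjusted p = 0.0330) in MRP8-Bcl2 and 2.59 (SE 0.52, adjusted p = 0.00379) over both. In MRP8-Bcl2 the call was lost without any of libraries 2, 3, 7 and 8, at adjusted p up to 0.131. Prdx2 overlaps the locus on the opposite strand.

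Jund (ENSMUSG00000071076, chr8:70698949-70700616, plus strand), the Jun gene that many cell types express without stimulation, was the lowest of the family in every BM and PT library except library 4. There Jun was lower (1.72 against 1.92 TPM). Its BM values were 1.92, 2.93 and 6.19 TPM in WT and 4.31, 1.30 and 3.66 TPM in MRP8-Bcl2, or 2.1 to 27.0 estimated reads. In PT it rose to 44.6, 27.5 and 18.9 TPM in WT, and it stood at 6.05, 17.8 and 11.8 TPM in MRP8-Bcl2. The groups did not overlap within either genotype, although library 7 of PT Bcl2 lay below library 6 of BM WT. The change was 2.76 (SE 0.71, adjusted p = 0.0499) in WT, 1.64 (SE 0.71, adjusted p = 0.108) in MRP8-Bcl2 and 2.20 (SE 0.50, adjusted p = 0.00765) over both. The WT call was lost without any of the 12 libraries except library 7, at adjusted p up to 0.193. Gm11175 overlaps the locus on the opposite strand.

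Summed TPM per library set the families side by side. The Jun family summed to 7.63 to 45.0 TPM in BM and to 83.4 to 205 TPM in PT, without overlap, and the Fos family to 28.4 to 138 TPM in BM and to 82.0 to 489 TPM in PT, with overlap. Of the TPM of the 6 genes together, Junb made up 10.3 to 16.7% in BM and 19.8 to 26.1% in PT, and again the tissues did not overlap. Fos made up 17.2 to 45.0% in BM and 0.8 to 27.5% in PT, with its lowest share in library 7, where Fosl2 took 64.8%. Jun ranged from 4.8 to 18.2% in BM and from 4.3 to 26.8% in PT. Such shares within a library do not change when the library is multiplied by a constant. They are given as descriptions with no test.

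**Figure D2:**
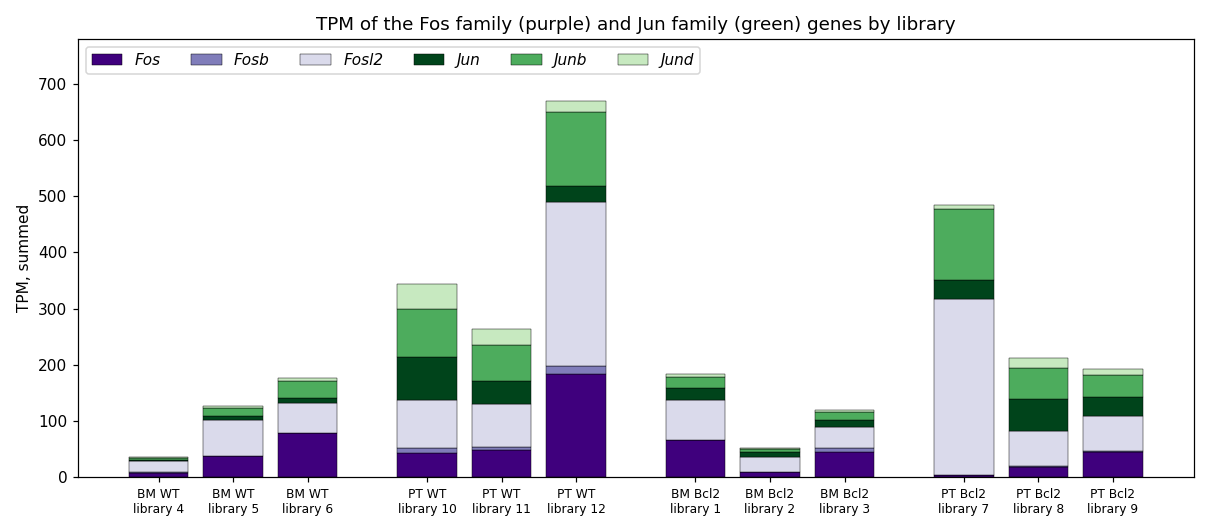
Bars give the summed TPM of 6 AP-1 genes in each library, on a linear axis from 0, with the Fos family in purple below the Jun family in green. Green segments summed to at most 45.0 TPM in BM and to at least 83.4 TPM in PT, and library 7 had almost no Fos (3.86 TPM) beside its tall Fosl2 segment (314 TPM).

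Atf3 showed the largest change of the 10 genes in every PT against BM comparison on the log2(TPM + 1) scale, but in WT Fosb was ahead of it with a pseudocount of 0.1 (5.75 against 5.53), and Egr1 was ahead without library 10 or 11. Atf3 (ENSMUSG00000026628, chr1:191170296-191218039, minus strand) encodes a stress-induced factor of the ATF family that pairs with Jun proteins and is known to limit inflammatory gene expression in macrophages. In BM it stood at 1.10, 1.28 and 0.561 TPM in WT and 1.54, 1.98 and 0 TPM in MRP8-Bcl2, which is 0 to 4.0 estimated reads per library. In PT it stood at 112, 62.3 and 15.2 TPM in WT and 129, 52.8 and 90.8 TPM in MRP8-Bcl2, or 82.0 to 765 reads. Library 12 was the lowest PT library and still lay far above all BM libraries. The log2 change was 4.64 (SE 0.78, adjusted p = 0.00599) in WT, 5.46 (SE 0.78, adjusted p = 0.000974) in MRP8-Bcl2 and 5.05 (SE 0.55, adjusted p = 5.58e-05) over both, where Atf3 was the 39th gene of 13456 by p. All 3 calls were kept in all 12 fits without 1 library, with values of 4.04 to 5.44 in WT (5.44 without library 12) and of 4.97 to 5.80 in MRP8-Bcl2. Because 1 TPM is added before the logarithm and the BM level is near that, the scale understates the ratio of the levels. Gm24748 overlaps the locus on the opposite strand.

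Maff (ENSMUSG00000042622, chr15:79346621-79359076, plus strand) encodes a small Maf protein, a leucine zipper partner without an activation domain of its own. It was close to the limit of detection in BM, with 2.30, 2.01 and 0.392 TPM in WT and 0.403, 0 and 0 TPM in MRP8-Bcl2, where the last group holds 1.0 estimated read in all. In PT it stood at 14.0, 2.23 and 15.8 TPM in WT and at 37.1, 5.87 and 8.90 TPM in MRP8-Bcl2. In WT library 11 lay at the BM level and the groups overlapped, whereas in MRP8-Bcl2 they did not. The log2 change was 1.96 (SE 0.86, adjusted p = 0.268) in WT, 3.62 (SE 0.86, adjusted p = 0.0106) in MRP8-Bcl2 and 2.79 (SE 0.61, adjusted p = 0.00592) over both. The call in MRP8-Bcl2 was kept in all 12 fits without 1 library, at adjusted p up to 0.0432.

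Egr1 (ENSMUSG00000038418, chr18:34859823-34864984, plus strand) encodes a zinc finger factor induced through the same kinase routes as Fos. It stood at 4.30, 6.72 and 8.64 TPM in BM WT, at 24.1, 12.2 and 1.73 TPM in BM Bcl2 and at 42.8, 25.6 and 18.8 TPM in PT Bcl2. In PT WT it stood at 55.4, 31.3 and 1231 TPM, and the last value, of library 12, was the highest of any of the 10 genes in any library. The WT groups did not overlap, and in MRP8-Bcl2 library 1 of BM lay above library 9 of PT. The change was 4.16 (SE 1.12, adjusted p = 0.0615) in WT, 1.56 (SE 1.12, adjusted p = 0.329) in MRP8-Bcl2 and 2.86 (SE 0.79, adjusted p = 0.0214) over both. Without library 12 these values were 2.54 (adjusted p = 0.190), 1.56 (0.164) and 2.05 (0.0288). The call over both genotypes was lost without library 3 or 4, at adjusted p up to 0.0577.

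Bhlhe40 (ENSMUSG00000030103, chr6:108660629-108666925, plus strand) encodes a basic helix-loop-helix repressor that binds E-boxes and is known from the circadian clock and from cytokine control in lymphoid and myeloid cells. It stood at 15.0, 14.2 and 8.07 TPM in BM WT and 15.8, 32.5 and 12.6 TPM in BM Bcl2, and at 168, 99.7 and 32.9 TPM in PT WT and 145, 109 and 117 TPM in PT Bcl2. All PT libraries were above all BM libraries, with the smallest gap between library 2 of BM Bcl2 (32.5 TPM) and library 12 of PT WT (32.9 TPM). The change was 2.68 (SE 0.64, adjusted p = 0.0367) in WT, 2.65 (SE 0.64, adjusted p = 0.0114) in MRP8-Bcl2 and 2.66 (SE 0.45, adjusted p = 0.00120) over both. Without library 12 the WT value was 3.32. The WT call was lost without any of libraries 4, 5, 6, 10 and 11 (adjusted p up to 0.169), and the MRP8-Bcl2 call without library 3 (adjusted p = 0.0537). 0610040F04Rik overlaps the locus on the opposite strand. Bhlhe40 was the highest of the 10 genes per unit of length in PT libraries 8, 9, 10 and 11.

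**Figure D3:**
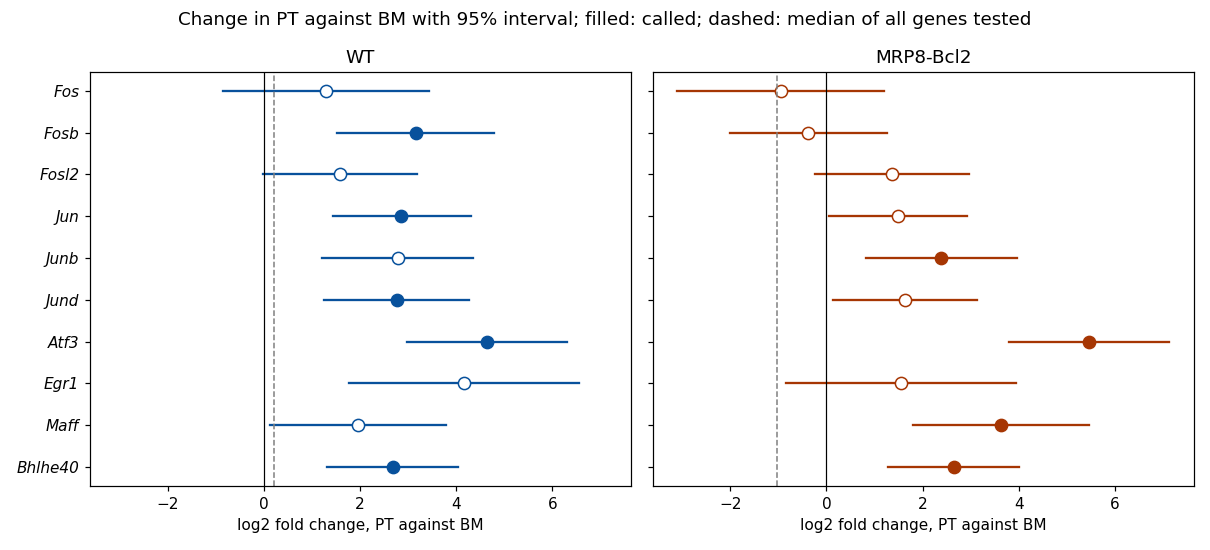
Points give the log2 fold change in PT against BM from the fit of the 4 groups and lines its 95% interval, in WT and in MRP8-Bcl2, with filled points for called genes and a dashed line at the median of all genes tested. Atf3 lay farthest to the right in both panels (4.64 and 5.46), and Fos and Fosb lay left of 0 in MRP8-Bcl2 with intervals that span 0.

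The PT against BM change of MRP8-Bcl2 less that of WT was tested as a term of the fit. None of the 10 genes was called in the limma fit, and 0.0149% of all genes were called. An unadjusted p under 0.05 was found for 1 of the 10, beside 2279 of the 13456 genes tested. Fosb had the smallest adjusted p, 0.233, with a change lower in MRP8-Bcl2 by a log2 difference of -3.53 (95% interval -5.83 to -1.23), beside a median of -1.18 over all genes tested in this term. Over the fits without 1 library it ran from -3.98 to -2.81, and over the other settings from -6.77 to -1.73. Egr1 followed with -2.60 (-5.98 to 0.78, adjusted p = 0.395), which was -0.99 without library 12 and -0.72 without libraries 9 and 12. For Bhlhe40 the difference was -0.03 with an interval from -1.95 to 1.90, so differences of several-fold either way lie within it. Genes called in 1 genotype and not in the other are therefore not shown to differ between genotypes.

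Levels were also compared between genotypes within each tissue. In BM none of the 10 genes was called, and 0.0223% of all genes were called. None of the 10 had an unadjusted p under 0.05, beside 991 of the 13456 genes tested. The genes with the smallest p there were Fosb, at a log2 difference of 1.39 in MRP8-Bcl2 against WT (95% interval -0.24 to 3.01), and Jun, at 1.21 (-0.23 to 2.64), with adjusted p = 0.708 and 0.710, beside a median of 0.49 over all genes. In PT none was called, and 0.0297% of all genes were called. An unadjusted p under 0.05 was found for 2 of the 10, beside 1709 of the 13456 genes tested. Those 2 were Fosb at -2.15 (-3.77 to -0.52, adjusted p = 0.299) and Fos at -2.20 (-4.35 to -0.06, adjusted p = 0.382), beside a median of -0.67 over all genes. Without library 9 they were -2.44 and -2.95 (adjusted p = 0.236 and 0.242), without library 12 -1.90 and -1.54 (0.691 and 0.813), and without library 7 -1.57 and -1.34 (0.480 and 0.594). Both stood lower in each PT Bcl2 library than in nearly all PT WT libraries, the exception being Fos in library 9, at 44.3 TPM against 43.1 TPM in library 10. This depended on scaling for Fos. With the genes with A or T runs left out and TPM rescaled, Fos in library 9 stood at 136 TPM. That was above libraries 10 (96.1 TPM) and 11 (114 TPM) and below library 12 (250 TPM), while Fosb stayed lower in each PT Bcl2 library.

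Scaling moved the sizes of these changes and a few of their directions. When the 108 genes with long stretches of A or T were left out and TPM rescaled, Atf3 stood at 5.36 in WT and 6.40 in MRP8-Bcl2, and Junb at 3.37 and 3.16. After that rescaling 7 of the 10 genes were called in WT, 5 in MRP8-Bcl2 and 9 over both genotypes, all but Fos, while the genes called higher among all those tested rose to 485 in WT, 543 in MRP8-Bcl2 and 1226 over both, from 214, 311 and 690. Rescaled levels of Atf3 in PT were 251, 149 and 20.7 TPM in WT and 162, 144 and 278 TPM in MRP8-Bcl2, so library 12 stood further from libraries 10 and 11 than before. The median change of all genes shifted by 0.42 in WT and by 0.46 in MRP8-Bcl2 with this rescaling, by -0.18 and 1.02 with quantile normalization, and by -0.22 and 1.59 when each library was centred on its median. With that centring Atf3 and Fosb were called in WT, where 112 of all genes were called higher. In MRP8-Bcl2 the same centring gave 7 calls, while calls higher among all genes went from 311 to 1636, and Fos turned from -0.95 to 0.63 and Fosb from -0.38 to 1.21, with adjusted p = 0.714 and 0.231. Jun, Junb, Jund, Atf3, Egr1, Maff, Bhlhe40 and Fosl2 kept a positive change in both genotypes under the 4 scalings.

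**Figure D4:**
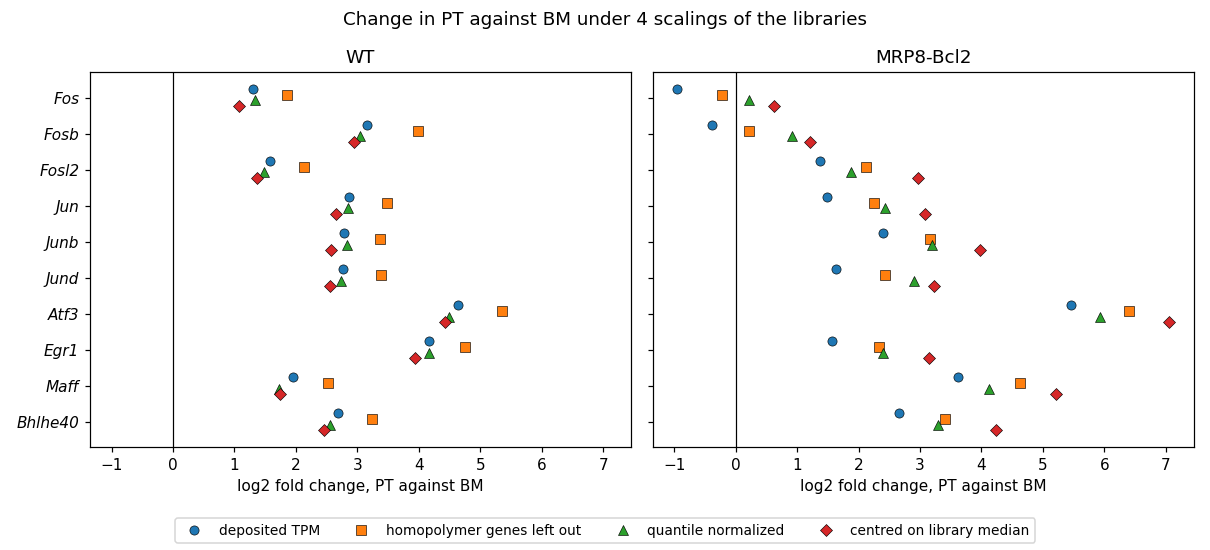
Each symbol is the log2 fold change of 1 gene in PT against BM under 1 of 4 scalings of the libraries, in WT and in MRP8-Bcl2. The symbols lay close together in WT and spread further in MRP8-Bcl2, where Fos ranged from -0.95 to 0.63 and Atf3 from 5.46 to 7.05.

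Markers of some other cells, but not of all, moved with the tissue too. The 8 neutrophil markers summed to 76949 to 350830 TPM in BM and to 15089 to 70033 TPM in PT, and none of them was at 0 throughout a group. S100a8 and S100a9 made up most of these sums. Over both genotypes 4 of the 8 were called lower (S100a8, S100a9, Ly6g and Mmp8) and 1 higher, Csf3r, the receptor for the cytokine that drives neutrophil production (2.66, SE 0.52, adjusted p = 0.00301), while Itgam and Cxcr2 had changes of 0.92 and 1.39 (adjusted p = 0.120 and 0.0944). Retnlg, the remaining marker, had a negative change and was not called. The 7 markers of immature neutrophils summed to 10900 to 31134 TPM in BM and to 78.2 to 185 TPM in PT, and all 7 were called lower over both genotypes. Of the 5 mast cell markers, 3 (Mcpt4, Cma1 and Tpsb2) were called higher over both genotypes and 1 in WT, and their sum was 16.9 to 78.0 TPM in BM WT, 32.2 to 678 TPM in PT WT, 9.37 to 17.1 TPM in BM Bcl2 and 4.91 to 49.3 TPM in PT Bcl2. All 3 erythroid markers tested were called lower, with a sum of 33.3 to 690 TPM in BM and 0 to 8.18 TPM in PT. The 9 macrophage markers listed, of 10, had sums between 108 and 224 TPM in BM WT and between 249 and 405 TPM in PT WT. In BM Bcl2 they lay between 54.3 and 260 TPM, and in PT Bcl2, where C1qa was at 0, between 161 and 735 TPM. The 6 B cell markers lay between 79.6 and 268 TPM in BM WT, between 637 and 1432 TPM in PT WT, between 32.9 and 245 TPM in BM Bcl2, and between 239 and 843 TPM in PT Bcl2. Those ranges lay higher in PT in WT for both lists. Macrophage and B cell marker sums were highest within their PT groups in libraries 12 and 7. In both, Fosl2, Junb, Egr1 and Maff were also highest. In library 12 Jun, Jund, Atf3 and Bhlhe40 were at their PT WT lowest. In library 7 Fos, Fosb and Jund were at their PT Bcl2 lowest. Libraries 7 and 12 also had the smallest shares of TPM in genes with A or T runs among PT libraries. With those genes left out and TPM rescaled, library 10 was highest in PT WT for Junb (188 TPM) and Maff (31.2 TPM). Library 8 was then highest in PT Bcl2 for Egr1 (70.1 TPM), while Fosl2 stayed highest in libraries 12 and 7. No macrophage marker was called, and 3 of the 6 B cell markers were called higher over both genotypes. T cell marker sums were 33.4 to 61.0 TPM in BM and 5.64 to 174 TPM in PT. Eosinophil marker sums were 0 to 8.47 TPM in BM and 0.788 to 9.60 TPM in PT. None of the 2 T cell markers and 1 eosinophil marker tested was called. The part of other cells in the results was not tested.

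Across the 12 libraries, log2 levels of the 10 genes varied together to very different degrees. Pearson's r between pairs ran from -0.26 for Fos and Bhlhe40 to 0.971 for Atf3 and Bhlhe40, and was 0.884 for Fosl2 and Junb and 0.845 for Jun and Jund. Fos had its highest r among the 10 with Fosb, at 0.514. Among all genes tested, the 3 with the highest r were Emilin2 (0.971), Slc7a11 (0.966) and Srgn (0.962) for Junb, and Rsad2 (0.971), Bhlhe40 (0.971) and Snn (0.968) for Atf3. For Bhlhe40 they were Atf3, Zfand2a (0.970) and Casp4 (0.962), for Jund Chrna9 (0.936), Creb5 (0.934) and Fam21 (0.917), and for Fos Gm13634 (0.889), Tlr5 (0.875) and Gm11714 (0.875). The 12 points share groups and library scale, so these values describe the libraries and carry no test.

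Other genes of the pathway were taken as lists. Among 26 other immediate early genes, 22 were tested and 12 were called higher in PT over both genotypes, with a median change of 2.04 beside -0.40 for all genes, of which 5.13% were called higher and 14.1% lower. The 3 with the smallest p were Nr4a3, an orphan nuclear receptor (3.59, SE 0.48, adjusted p = 0.000238), Ier5 (2.90, SE 0.44, adjusted p = 0.000513) and Ier3 (3.42, SE 0.54, adjusted p = 0.000755). Nr4a3 stood at 0.299 to 0.875 TPM in the 6 BM libraries and reached 30.5 TPM in PT, where every library lay above every BM library. By genotype 5 of these genes were called higher in WT and 8 in MRP8-Bcl2, against 1.59% and 2.31% of all genes, and none was called lower in any of the 3 comparisons.

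Genes commonly cited as AP-1 targets gave 5 called higher and 0 lower of 13 tested over both genotypes, with a median of 0.55, beside the 5.13% higher and 14.1% lower of all genes. Il1b, the cytokine interleukin-1 beta, changed by 4.39 (SE 0.61, adjusted p = 0.000288), Ptgs2, the inducible cyclooxygenase, by 3.38 (SE 0.73, adjusted p = 0.00575) and Cd44, an adhesion receptor, by 1.46 (SE 0.35, adjusted p = 0.0101). Other AP-1, ATF, CREB and MAF factors gave 2 called higher and none lower of 17 tested, with a median of 0, beside the same shares of all genes. These were Nfe2l2, the oxidative stress regulator NRF2 (2.32, SE 0.38, adjusted p = 0.000876), and Bach1, a heme-sensitive repressor (1.93, SE 0.44, adjusted p = 0.00763), while Mafk had 1.43 (SE 0.50, adjusted p = 0.0588).

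Upstream kinases and SRF/TCF factors, which carry signals to immediate early promoters, gave 2 called higher and 3 lower of 24 tested, with a median of -0.44. The 14.1% of all genes called lower and their median of -0.40 are close to these, so the lower calls set nothing apart in this list. The 3 with the smallest p were all lower: Mkl1, an SRF coactivator (-2.36, SE 0.52, adjusted p = 0.00651), Mapk3, the kinase ERK1 (-1.62, SE 0.40, adjusted p = 0.0117), and Rps6ka1, a kinase downstream of ERK (-1.91, SE 0.48, adjusted p = 0.0132). RNA levels of kinases say nothing of their activity. The lists were made with results of these data known, and their medians are descriptions.

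**Figure D5:**
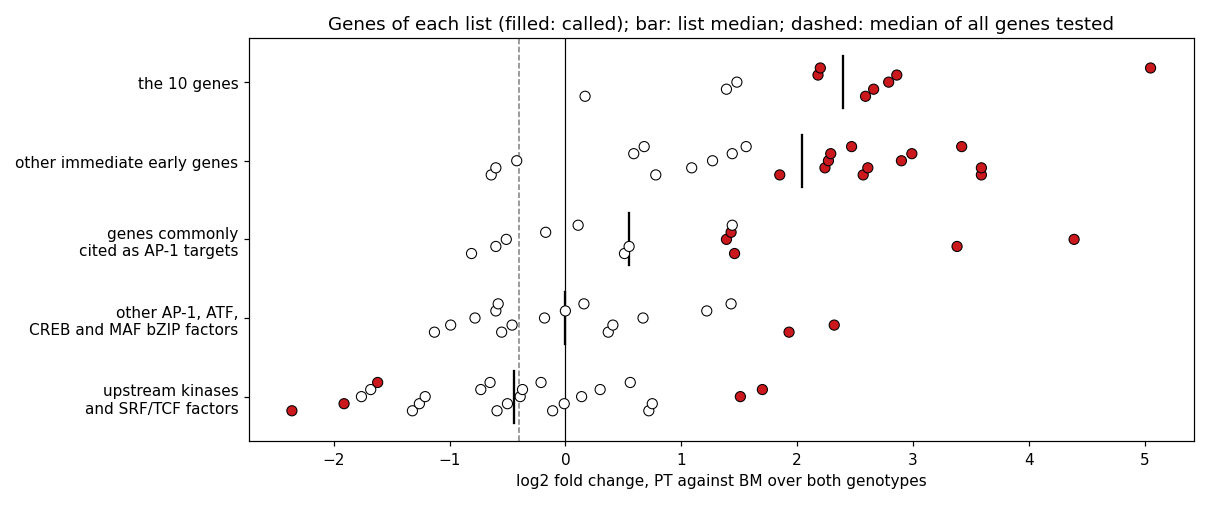
Each point is the log2 fold change of 1 gene in PT against BM over both genotypes, by list, filled where called, with a bar at the list's median and a dashed line at the median of all genes tested (-0.40). The medians were 2.40 for the 10 genes and 2.04 for other immediate early genes, against -0.44 for upstream kinases and SRF/TCF factors.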

How the data were processed

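Neutrophil RNA from the 12 libraries was amplified, sequenced and analysed by the authors with AltAnalyze at default values, and the version, genome build, annotation and strand setting were not stated. The deposited table gives log2(TPM + 1) per gene and library, and TPM was recovered by undoing that step, which matched the authors' deposited group averages to within 7.7e-06 TPM. Libraries were grouped by the deposited column names and marker table. The authors' own fold changes and p-values, correlation and lineage scores and centred marker values were not used, nor were 2 columns of per-sample values that name no sample. TPM keeps no read totals. The value of 1 read was estimated from low values of 5021 genes with a single transcript of at least 800 nt, with 250 nt taken off the length.

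The 13456 genes that reached 1 TPM in 3 or more libraries were fitted with limma 3.58.1 in R 4.3.3 on log2(TPM + 1), with a trend, in 1 fit of the 4 groups, which was first tested on simulated data. Calls needed an adjusted p under 0.05 over all these genes and a 2-fold change, or the adjusted p alone for the difference between genotypes. The members, the lists and the markers were chosen with earlier results of these data known. Named genes were the 10 members, the 3 genes of each list with the smallest p over both genotypes, the 3 most correlated genes for Fos, Junb, Jund, Atf3 and Bhlhe40, for each genotype comparison the 2 members whose p was smallest, and the mouse Bcl2 gene. The difference between genotypes for Bhlhe40 and the cell type markers given by name were named after their values were seen. Coordinates are from GENCODE M21 (GRCm38), which holds 27475 of the listed genes, matched by Ensembl ID. The alternatives were a pseudocount of 0.1, 2 other filters, median centring, quantile normalization, leaving out 108 genes whose transcripts hold 31 or more consecutive A or T bases, eBayes without trend, fits of only the 2 groups compared, 2 other thresholds and fits without each library. Leaving out libraries 9 and 12 together was chosen after the data were seen.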

Additional observations from a re-analysis of the deposited data

How the results depend on the processing

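No paired analysis was possible because the columns carry no replicate or mouse number. Over both genotypes the count of the 10 genes called stayed between 6 and 9 under the alternatives run, which do not include fits of only the groups compared, and Jun, Junb, Jund, Atf3, Maff and Bhlhe40 were called in each of them. In WT the main count of 5 became 3 with a pseudocount of 0.1, 2 without a filter on low values, 2 with median centring, 3 with quantile normalization, 1 when only the groups compared were fitted and 2 without libraries 9 and 12. Leaving out 1 library gave 1 to 6 genes in WT (1 without library 4, 5 or 10, 2 without library 11, and 3 without library 2, 6 or 12), 2 to 4 in MRP8-Bcl2 (2 without library 3) and 6 to 8 over both. In MRP8-Bcl2 median centring gave 7. No member was called between genotypes within a tissue under any alternative, or for the difference between genotypes under those run for it, which again leave out the fits of only the groups compared.

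Fos and Fosb changed direction in MRP8-Bcl2, to 0.63 and 1.21 with median centring and to 0.22 and 0.92 with quantile normalization, and Fosb to 0.21 with the A or T runs left out. Fosb in MRP8-Bcl2 ranged from -0.82 to 0.34, and Fos over both genotypes from -0.27 to 0.60, over the fits without 1 library, and Fos over both was -0.53 without libraries 9 and 12. In the genotype comparisons the sign turned for 6, 7 and 6 of the 10 genes under some alternative, always short of the threshold. The cause was not tested.

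Over all genes, calls higher and lower over both genotypes were 690 and 1891, against 1752 and 862 with median centring, 1233 and 1249 with quantile normalization, and 1226 and 933 without the A or T runs. In WT they were 214 and 164, against 112 higher with centring, 264 lower with quantile normalization, 485 and 109 without the runs, 140 higher without a filter, 101 and 78 with only the groups compared, 119 and 106 without libraries 9 and 12, and 414 and 296 at adjusted p under 0.1. In MRP8-Bcl2 they were 311 and 2567, against 1636 and 467, 678 and 779, and 543 and 1088 under the 3 scalings, 203 higher with only the groups compared and 490 higher at adjusted p under 0.1. Without 1 library they ranged from 46 to 301 and 50 to 217 in WT, from 147 to 315 and 1042 to 2759 in MRP8-Bcl2, and from 508 to 682 and 1242 to 2087 over both. Genes at a few reads, such as Atf3 and Maff in BM, have levels that depth limits.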
